A study of Mus musculus with 6 samples.

Results

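The MHC class II presentation genes are described here across sorted bone marrow cells of mouse recipients of Evi1-GFP marrow, at a stage the labels call leukemia and at one they call preleukemia, and of mock recipients. The 7 genes are H2-Aa, H2-Ab1 and H2-Eb1, which encode chains of the class II molecule, Cd74, which encodes the invariant chain, H2-DMa and H2-DMb1, which encode the peptide exchange factor DM, and Ciita, which encodes the class II transactivator. They were taken by symbol from the 38924 rows of the table of expression values, and all 7 had a row. 6 of them reached 1 RPKM (reads per kilobase of transcript, scaled to library depth) in at least 2 libraries and were tested. Ciita did not and is given as values only.

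The cells came from C57BL/6 recipients of transduced bone marrow and were sorted as GFP+, Lin- (without markers of mature lineages) and c-kit+. The leukemia group received Evi1-GFP marrow and was sampled after 6 months, the preleukemia group received Evi1-GFP marrow and was sampled after 4 weeks, and the mock group received GFP marrow and was sampled after 4 weeks. Each group had 2 libraries, numbered 1 and 2, and every group carried a transplant, a vector and GFP. The samples used here hold no GFP group at 6 months, so leukemia and time after transplantation cannot be told apart. Separate mice for the 2 libraries of a group are not stated in the labels, so p-values measure only the spread between libraries, which may be technical.

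Class II molecules carry peptides from endocytosed proteins to the cell surface, where CD4+ T cells read them. The α and β chains assemble with the invariant chain, which is cut down in endosomes, and DM then exchanges its last fragment for other peptides. CIITA does not bind DNA itself but is recruited by factors on the X and Y boxes of class II promoters. Dendritic cells, B cells and macrophages are the usual class II positive cells of the marrow, and some stem and progenitor cells also carry class II.

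4 promoters are shown because they hold the same pair of short patterns and belong to H2-Ob, which passed the test against mock, and to H2-Aa, H2-Eb1 and H2-DMb1, which did not. Each is the RefSeq window of 300 bases on GRCm38.p6, 250 before and 50 after the start, 5′ to 3′ on the gene's strand. Capitals mark GNAAC, the letters of the start of an X box, and ATTGG, the letters of a Y box, where ATTGG followed GNAAC after 20 to 35 bases.
H2-Aa (chr17:34287774-34288073, minus strand): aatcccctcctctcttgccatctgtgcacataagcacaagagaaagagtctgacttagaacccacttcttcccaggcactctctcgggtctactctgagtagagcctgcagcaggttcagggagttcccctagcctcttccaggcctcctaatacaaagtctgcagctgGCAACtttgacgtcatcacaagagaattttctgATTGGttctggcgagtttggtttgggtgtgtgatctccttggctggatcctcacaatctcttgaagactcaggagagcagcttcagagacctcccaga
H2-Eb1 (chr17:34305617-34305916, plus strand): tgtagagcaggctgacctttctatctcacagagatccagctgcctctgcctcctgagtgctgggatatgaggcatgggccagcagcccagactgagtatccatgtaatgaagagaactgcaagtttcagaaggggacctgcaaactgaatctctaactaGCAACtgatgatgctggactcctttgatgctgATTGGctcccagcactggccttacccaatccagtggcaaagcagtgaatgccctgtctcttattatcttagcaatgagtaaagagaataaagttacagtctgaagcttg
H2-DMb1 (chr17:34152941-34153240, plus strand): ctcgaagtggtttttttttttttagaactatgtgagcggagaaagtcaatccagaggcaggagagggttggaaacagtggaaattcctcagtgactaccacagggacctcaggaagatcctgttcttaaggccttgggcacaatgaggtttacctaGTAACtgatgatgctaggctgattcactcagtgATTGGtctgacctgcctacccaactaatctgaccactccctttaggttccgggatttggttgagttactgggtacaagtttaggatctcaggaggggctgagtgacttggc
H2-Ob (chr17:34238655-34238954, plus strand): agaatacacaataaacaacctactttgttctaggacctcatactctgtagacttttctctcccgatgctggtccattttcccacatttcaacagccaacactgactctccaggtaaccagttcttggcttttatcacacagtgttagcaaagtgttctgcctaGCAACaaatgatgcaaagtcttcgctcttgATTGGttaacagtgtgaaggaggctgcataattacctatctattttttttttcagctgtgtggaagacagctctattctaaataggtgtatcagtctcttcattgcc

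The gap between the 2 patterns was 28 bases in H2-Aa, 27 in H2-Eb1, 28 in H2-DMb1 and 25 in H2-Ob. Windows were found for 4 of the 7 genes, and for 8 of 12 class II genes when H2-Oa, H2-Ob, H2-DMb2, H2-Eb2 and H2-Ea-ps were added. The pair stood in 6 of 9 windows. It stood in neither window of H2-DMa, which has 2 RefSeq starts, and not in that of H2-DMb2. The H2-DMa windows (chr17:34122582-34122881 and chr17:34125268-34125567) do not cover the gene's GENCODE M21 start at 34119541. The first of them overlaps Brd2, which spans chr17:34112023-34122634. The H2-DMb2 window (chr17:34144999-34145298) does not cover that gene's GENCODE start at 34143307 either. The pair was not looked for at the GENCODE starts, so these windows do not show that either gene lacks it. Among all 32851 windows of the RefSeq table, 2.7% held the pair, 84.8% held GNAAC and 37.4% held ATTGG, counted on either strand. The patterns were chosen after these windows had been read, so the matches are a description and show no binding.

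On GRCm38, in GENCODE M21, the protein-coding genes of chromosome 17 among them are H2-DMa (chr17:34119541-34139101, plus strand), H2-DMb1 (chr17:34153072-34160230, plus), H2-Ab1 (chr17:34257689-34269419, plus), H2-Aa (chr17:34282744-34287823, minus) and H2-Eb1 (chr17:34305867-34316674, plus). Ciita lies on chromosome 16 (chr16:10480059-10528418, plus) and Cd74 on chromosome 18 (chr18:60803848-60812652, plus). The files' values were between 0.0440 and 35.3 RPKM over the 7 genes and 6 libraries. The table implied 16906248 to 21628016 reads per library. At that depth, 0.139 to 0.177 RPKM stands for 3 reads on a transcript of 1 kb, and this floor covers counting error only. Fold changes are differences of log2(RPKM + 1), which understate the changes of weakly expressed genes, with the first-named group over the second. Each adjusted p is from limma over 10958 genes.

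H2-DMa was the member with the clearest order of groups: lowest in leukemia, intermediate in preleukemia and highest in mock. Its α chain of DM is needed, with the β chain, to load peptides. H2-DMa had 2.35 and 2.14 RPKM in the leukemia libraries, 9.87 and 8.22 RPKM in the preleukemia libraries, and 26.4 and 28.8 RPKM in the mock libraries. No 2 groups overlapped. The means were 2.24 ± 0.148, 9.04 ± 1.16 and 27.6 ± 1.75 RPKM in leukemia, preleukemia and mock (SD, n = 2 each). In ratios of mean RPKM, mock was 12.3 times leukemia and 3.05 times preleukemia.

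H2-DMa fell in all 3 comparisons. The log2 fold change was -1.51 (SE 0.127, limma adjusted p = 0.00111) in preleukemia against mock and -3.14 (limma adjusted p = 6.99e-05) in leukemia against mock. In leukemia against preleukemia it was -1.63 (limma adjusted p = 0.00139). The calls held under all 13 alternatives. H2-DMa shares 360 exon bases, 10.4% of its own, with Brd2 on the opposite strand, and no source states that strand was kept, so reads there cannot be assigned to either gene. Brd2, which encodes a chromatin reader, had 46.4 and 46.4 RPKM in leukemia, 44.4 and 45.3 RPKM in preleukemia, and 54.3 and 57.3 RPKM in mock. Its share of the reads at the overlap was not tested.

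H2-DMb1, the gene of the β chain that pairs with the product of H2-DMa, had no difference past the test; the difference between the 2 genes' changes was not tested. It had 8.73 and 7.78 RPKM in leukemia, 9.56 and 9.82 RPKM in preleukemia, and 8.55 and 13.6 RPKM in mock. Its log2 fold changes were -0.14 in preleukemia against mock (limma adjusted p = 0.641), -0.35 in leukemia against mock (0.232) and -0.21 in leukemia against preleukemia (0.511). The RPKM of H2-DMa over that of H2-DMb1 was 0.269 and 0.275 in leukemia, 1.03 and 0.838 in preleukemia, and 3.08 and 2.12 in mock. The groups did not overlap in this ratio. 22.7% of the 50-base words of H2-DMb1 transcripts also stand in H2-DMb2, so reads between those 2 genes could be split by the counting. H2-DMb2 was weakly expressed, at 1.11 and 1.07 RPKM in leukemia, 1.87 and 2.00 RPKM in preleukemia, and 1.19 and 2.26 RPKM in mock.

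H2-Ab1, the β chain gene of the I-A molecule, lay below mock in every library of both Evi1 groups, and its fall passed the test in preleukemia. It had 3.98 and 5.25 RPKM in leukemia, 1.66 and 4.66 RPKM in preleukemia, and 8.62 and 19.0 RPKM in mock. Neither Evi1 group overlapped mock. The log2 fold change was -1.84 (SE 0.438, limma adjusted p = 0.0308) in preleukemia against mock, and -1.31 (limma adjusted p = 0.0691) in leukemia against mock, which did not pass. The preleukemia call was lost in 6 of the 13 alternatives. Without preleukemia 1 it was -1.30 (limma adjusted p = 0.140) and without mock 2 it was -1.31 (0.0949). It was also lost with no filter (0.103), with the 4 libraries compared (0.0549), without leukemia 1 (0.0541) and without leukemia 2 (0.0540).

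H2-Aa and H2-Eb1, the genes of the α chain of I-A and the β chain of I-E, had no difference past the test. H2-Aa had 4.57 and 4.21 RPKM in leukemia, 0.914 and 3.53 RPKM in preleukemia, and 2.44 and 10.1 RPKM in mock. H2-Eb1 had 5.29 and 4.23 RPKM in leukemia, 1.05 and 3.45 RPKM in preleukemia, and 2.08 and 10.1 RPKM in mock. Both leukemia libraries lay above both preleukemia libraries and inside the range of mock. H2-Ea-ps, the pseudogene for the α chain of I-E in C57BL/6, was listed at 0 in all 6 libraries.

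The log2 fold changes of H2-Aa were -1.07 in preleukemia against mock (limma adjusted p = 0.237), -0.20 in leukemia against mock (0.824) and 0.87 in leukemia against preleukemia (0.345). Those of H2-Eb1 were -0.95, -0.03 and 0.92 in the same order (limma adjusted p = 0.304, 0.979 and 0.332). A p that misses the threshold does not show equal levels: the 2 mock libraries differed by 1.69 for H2-Aa and 1.85 for H2-Eb1 on the log2 scale.

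Cd74, the invariant chain gene, had 12.2 and 12.5 RPKM in leukemia, 3.98 and 11.6 RPKM in preleukemia, and 7.55 and 35.3 RPKM in mock. Its mean was the highest of the 7 genes in leukemia at 12.3 ± 0.188 RPKM, against 7.79 ± 5.39 in preleukemia and 21.4 ± 19.6 in mock (SD, n = 2 each). The log2 fold changes were -1.15 in preleukemia against mock, -0.40 in leukemia against mock and 0.75 in leukemia against preleukemia (limma adjusted p = 0.272, 0.696 and 0.493). Leukemia lay above preleukemia in all libraries and within the range of mock.

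Ciita was at 0.0725 and 0.136 RPKM in leukemia, 0.0787 and 0.0528 RPKM in preleukemia, and 0.0440 and 0.330 RPKM in mock. These stand for about 14.5 and 25.4 reads in leukemia, 12.7 and 10.9 in preleukemia, and 9.1 and 63.5 in mock. The highest value was again in mock 2, and the other 5 libraries lay at or under 0.136 RPKM. It was not tested, and 329 of its exon bases overlap Dexi on the opposite strand.

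**Figure D1:**
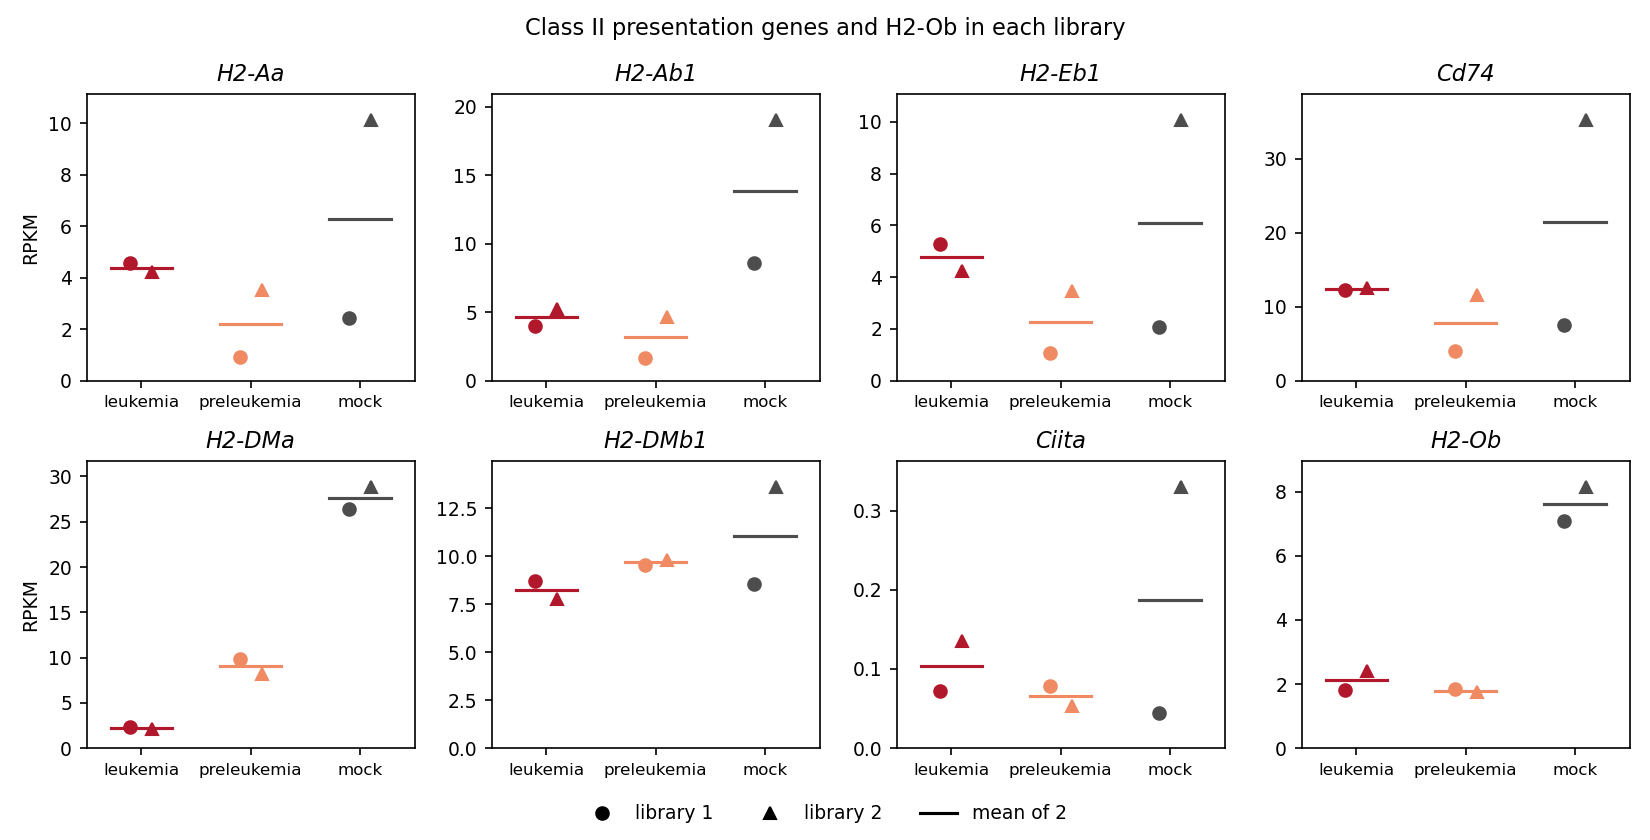
RPKM of each class II presentation gene and of H2-Ob in each library, by group (leukemia, preleukemia, mock); circles are library 1, triangles library 2 and lines the group means. H2-DMa averages 2.24 in leukemia, 9.04 in preleukemia and 27.6 RPKM in mock, while H2-Aa, H2-Eb1 and Cd74 spread widely within mock and preleukemia.

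Of the 6 genes tested, 2 fell and 0 rose in preleukemia against mock (H2-DMa and H2-Ab1), where 19.5% of all 10958 genes were called and 6.02% were lower. In leukemia against mock 1 fell and 0 rose, with 25.6% of all genes called and 13.5% lower. In leukemia against preleukemia 1 fell and 0 rose, with 18.3% called, 13.0% lower and 5.27% higher. H2-DMa was the gene called in both. The median log2 fold change of the 6 genes was -1.11 in preleukemia against mock, -0.38 in leukemia against mock and 0.64 in leukemia against preleukemia, where all tested genes had medians of 0.05, -0.04 and -0.09. The comparisons with mock share the mock libraries.

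Counted by libraries that did not overlap, H2-Ab1 and H2-DMa, 2 of 6, lay below mock in preleukemia and 0 above, where 62.7% of all genes did not overlap (25.5% below and 37.2% above). The same 2 lay below mock in leukemia and 0 above, where 65.4% of all genes did not overlap (35.5% below and 30.0% above). In leukemia against preleukemia H2-Aa, H2-Eb1 and Cd74 lay above and H2-DMa and H2-DMb1 below, where 70.7% of all genes did not overlap (24.7% above and 46.0% below).

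**Figure D2:**
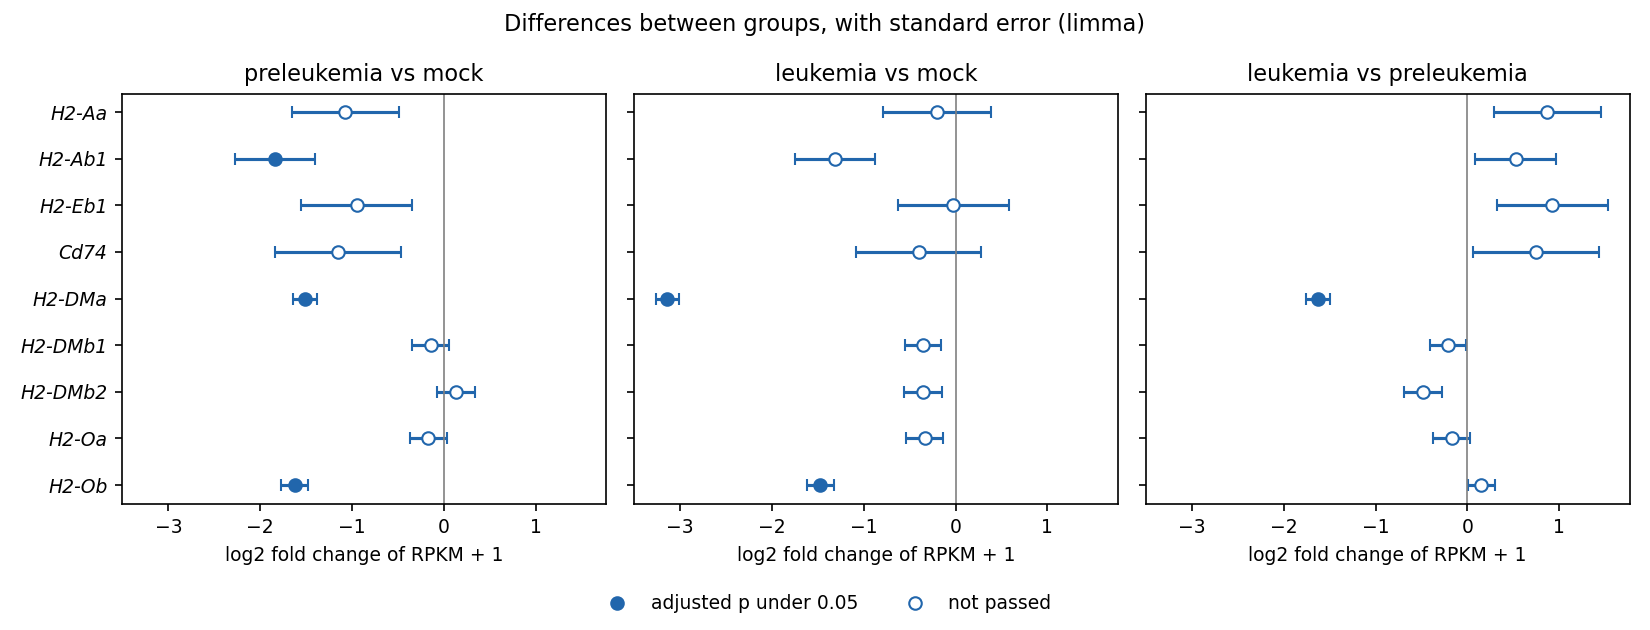
log2 fold change of RPKM + 1 with its standard error for the tested class II genes, 1 panel per comparison; filled points passed the limma test and open points did not. H2-DMa lies at -1.51, -3.14 and -1.63 in the comparisons of preleukemia with mock, leukemia with mock and leukemia with preleukemia.

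The libraries of a group differed strongly in 4 of the genes. In preleukemia, library 2 was above library 1 by 1.24 for H2-Aa, 1.09 for H2-Ab1, 1.12 for H2-Eb1 and 1.34 for Cd74 on the log2 scale. In mock the same differences were 1.69, 1.06, 1.85 and 2.09. Over all tested genes the median absolute difference was 0.112 in preleukemia and 0.216 in mock, and 0.155% of genes were as far apart in mock as Cd74 was. In leukemia the differences were small, at -0.10 for H2-Aa, 0.33 for H2-Ab1, -0.27 for H2-Eb1 and 0.03 for Cd74.

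H2-DMa did not take part in these differences: its libraries differed by -0.24 in preleukemia and 0.13 in mock. The summed RPKM of H2-Aa, H2-Ab1, H2-Eb1 and Cd74 was 26.0 and 26.1 in leukemia, 7.61 and 23.2 in preleukemia, and 20.7 and 74.5 in mock. With both mock libraries all 6 tested genes had negative log2 fold changes in preleukemia against mock, and 2 passed the test. The sizes depended on which mock library was kept. Without mock 1 they were -1.92 for H2-Aa, -1.87 for H2-Eb1, -2.19 for Cd74 and -0.45 for H2-DMb1. Without mock 2 they were -0.23, -0.03, -0.11 and 0.16 in the same order. In leukemia against mock, leaving out mock 1 gave -1.84 for H2-Ab1 and -0.66 for H2-DMb1, and leaving out mock 2 gave -0.78 and -0.05.

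**Figure D3:**
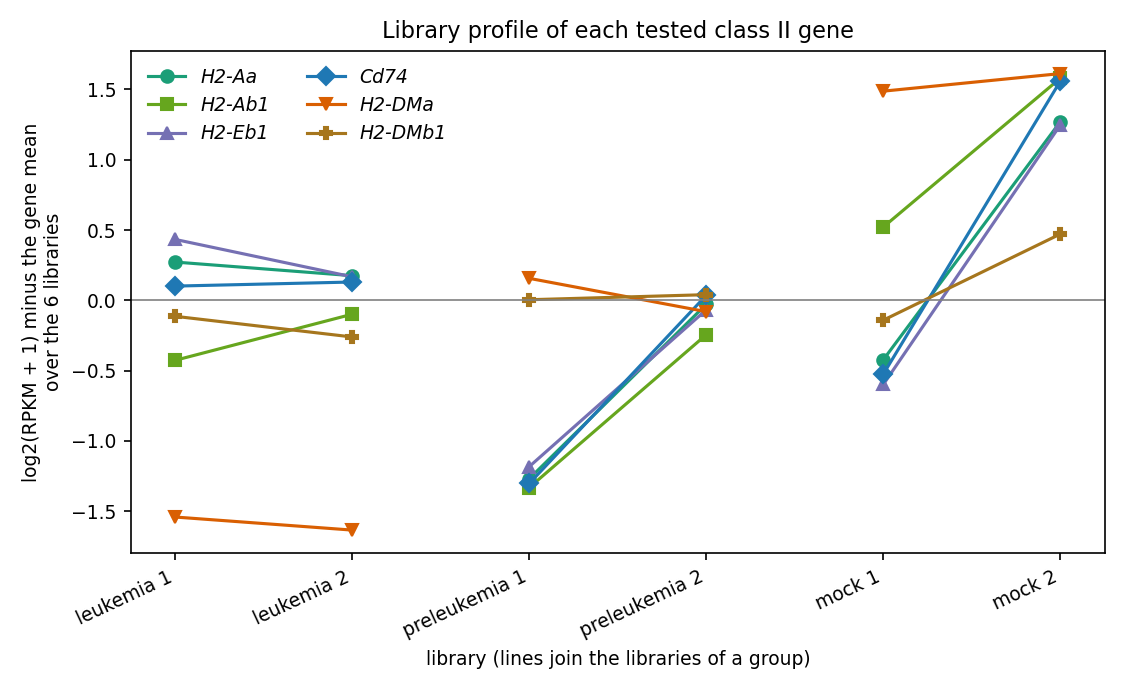
log2(RPKM + 1) of each tested class II gene in each library, minus the gene's mean over the 6 libraries. H2-Aa, H2-Ab1, H2-Eb1 and Cd74 move together within preleukemia and mock, where library 2 is the higher, and H2-DMa does not.

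H2-Ob and H2-Oa encode DO, an inhibitor of DM. H2-Ob had 1.83 and 2.41 RPKM in leukemia, 1.84 and 1.74 RPKM in preleukemia, and 7.10 and 8.15 RPKM in mock, with no overlap of either Evi1 group with mock. It fell in preleukemia against mock (-1.63, limma adjusted p = 0.00141) and in leukemia against mock (-1.47, 0.00132), under all 13 alternatives, and did not pass in leukemia against preleukemia (0.15, 0.519). H2-Oa had 1.38 and 2.17 RPKM in leukemia, 2.02 and 2.15 RPKM in preleukemia, and 2.96 and 2.03 RPKM in mock, and passed in none. 22.8% of the exon bases of H2-Oa are shared with BC051537 on the opposite strand.

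In the 15 genes between H2-Oa and H2-Ea-ps on chromosome 17, 13 were tested. The class I genes Tap1 and Tap2, which carry peptides into the endoplasmic reticulum, and the immunoproteasome gene Psmb8 fell in leukemia against mock (-0.78, -0.76 and -0.45, limma adjusted p = 0.00614, 0.00361 and 0.0211). In preleukemia against mock Tap2 fell (-0.59, limma adjusted p = 0.0112), and in leukemia against preleukemia Tap1 and the immunoproteasome gene Psmb9 fell (-0.53 and -0.43, 0.0292 and 0.0265). H2-DMa had the largest fold changes among the tested genes of the region in leukemia against mock and in leukemia against preleukemia.

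**Figure D4:**
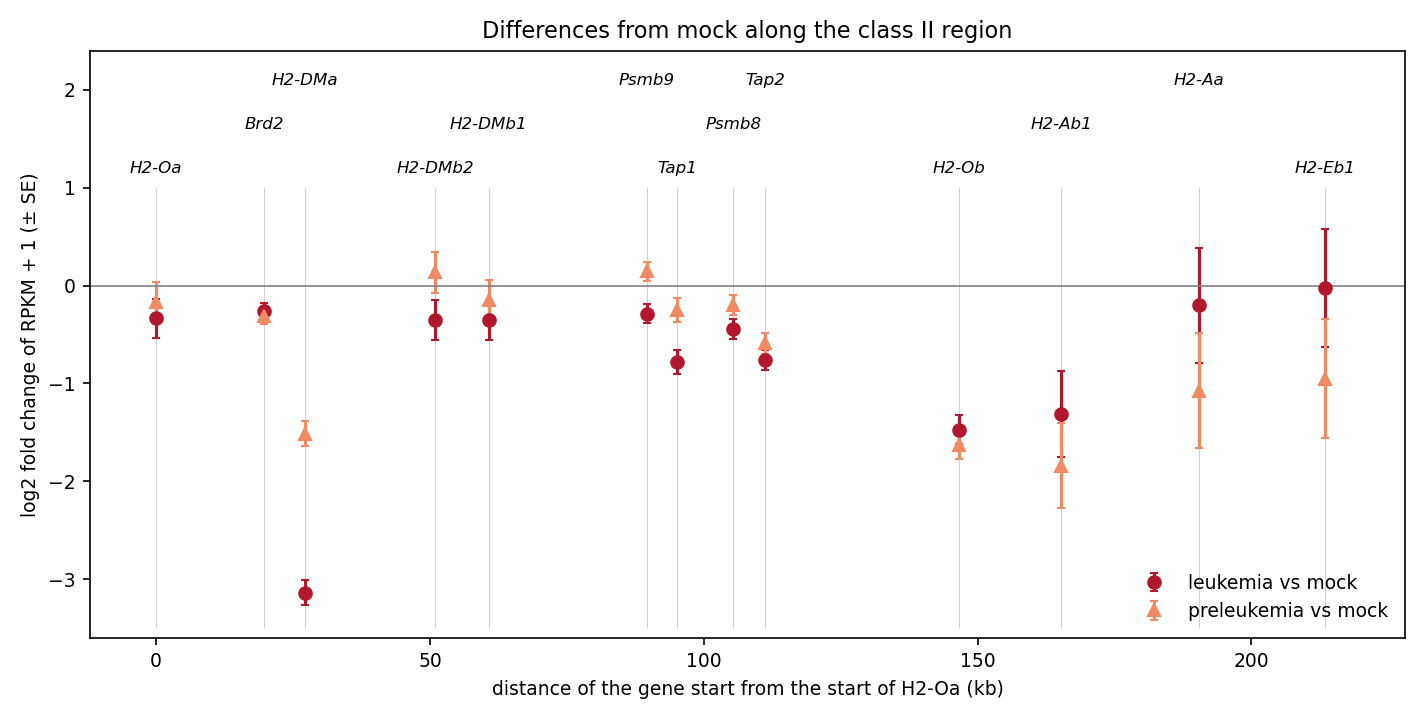
log2 fold change with its standard error of the tested genes from H2-Oa to H2-Eb1, by distance of the gene start from the start of H2-Oa in kb, in leukemia against mock (circles) and preleukemia against mock (triangles). H2-DMa, 27.2 kb from H2-Oa, reaches -3.14 in leukemia against mock, and its neighbours H2-DMb2 and H2-DMb1 lie at -0.35 each.

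The genes that act before and around class II loading did not move as one list. In a list of 6 genes, the endosomal proteases and the reductase gene Ifi30, 2 rose and 1 fell in preleukemia against mock (median -0.03). Of all genes tested, 13.5% were called higher and 6.02% lower there. Ctsb, a cysteine protease, rose by 1.03 (limma adjusted p = 0.00125), Ctsd, an aspartic protease, rose by 0.49 (0.0349), and Ifi30, which reduces disulfide bonds of antigens, fell by 0.87 (0.00758). In leukemia against mock 3 fell (median -0.42), where 13.5% of all genes tested were called lower. The 3 were Ifi30, with means of 8.95 RPKM in leukemia and 19.0 RPKM in mock (limma adjusted p = 0.00347), Lgmn, with means of 0.572 and 2.23 RPKM (0.0195), and Ctsl (-0.45, 0.0386). Ctsb, Ctsl and Ctsd fell in leukemia against preleukemia (median -0.47), where 13.0% of all genes tested were called lower.

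Of 7 genes of factors that bind class II promoters, 2 rose in preleukemia against mock and 3 in leukemia against mock (medians 0.33 and 0.38), and 0 fell, where 13.5% and 12.1% of all genes tested were called higher. Rfx5, a subunit of the X box complex, rose by 0.58 in preleukemia (limma adjusted p = 0.0213) and by 0.86 in leukemia (0.00423). Rfxank, another subunit, rose by 0.52 and 0.45 in the same comparisons (limma adjusted p = 0.0391 and 0.0485), and Nfya, of the Y box complex, rose by 0.38 in leukemia (0.0463). In leukemia against preleukemia limma called 0 of the 7.

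Of 8 genes of factors that act on Ciita, 5 were tested. Among them Spi1 rose in preleukemia against mock (0.83, limma adjusted p = 0.00869), and Spi1 and Irf2 rose in leukemia against mock (0.52 and 0.43, 0.0311 and 0.0246). Irf2 also rose in leukemia against preleukemia (0.40, limma adjusted p = 0.0417). Irf1, which acts on Ciita after interferon, had 18.0 and 14.9 RPKM in leukemia, 16.4 and 16.6 RPKM in preleukemia, and 16.5 and 42.8 RPKM in mock: mock 2 was again the highest. Among the genes of the interferon gamma receptor pathway, Jak1 rose and Jak2 and Ifngr1 fell in leukemia against mock and in leukemia against preleukemia. Of 6 costimulatory and inhibitory surface molecules 2 were tested, and Cd40, Cd80, Cd86 and Pdcd1lg2 were not. Cd274, a ligand of the inhibitory receptor PD-1, fell against mock in preleukemia (-0.82, limma adjusted p = 0.0162) and leukemia (-1.08, 0.00475). Of all genes tested, 6.02% and 13.5% were called lower there. Of the 28 calls in the pathway lists that concern no class II gene, 5 held under all 13 alternatives: Ctsb in preleukemia against mock and in leukemia against preleukemia, and Ifi30, Rfx5 and Cd274 in leukemia against mock.

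Summed markers listed for class II positive cell types differed between the groups too, with a few genes leading each sum. The summed RPKM of 11 dendritic cell markers was 9.74 and 11.5 in leukemia, 9.88 and 9.85 in preleukemia, and 26.4 and 34.0 in mock. Flt3 and Tcf4 made up most of this sum, with means of 2.91 and 5.67 RPKM in leukemia, 3.39 and 4.72 in preleukemia, and 16.6 and 9.39 in mock. Only 3 of the 11 were tested, and Flt3 and Tcf4 passed, lower than mock in both Evi1 groups. Cd209a, not tested, went the other way, with means of 0.566, 0.298 and 0.0156 RPKM in leukemia, preleukemia and mock. Batf3, not tested either, had 0.522, 0.269 and 0.343. The summed RPKM of 9 of the 10 listed B cell markers was 12.6 and 11.9 in leukemia, 18.1 and 20.1 in preleukemia, and 41.6 and 44.1 in mock. Ebf1 was not analysed here. The B cell markers did not move one way: against mock 1 rose and 5 fell in each Evi1 group. Of all genes tested, 13.5% were called higher and 6.02% lower in preleukemia, and 12.1% and 13.5% in leukemia. Cd79b, a chain of the B cell receptor complex, rose by 0.57 in preleukemia and 0.37 in leukemia (limma adjusted p = 0.0142 and 0.0433). It made up nearly all of the leukemia sum, with 12.2 and 11.7 RPKM in leukemia, 14.1 and 13.6 RPKM in preleukemia, and 8.50 and 9.51 RPKM in mock. The other 8 markers summed to 0.349 and 0.234 in leukemia, 3.98 and 6.46 in preleukemia, and 33.1 and 34.6 in mock.

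For 9 monocyte and macrophage markers the sum was 85.8 and 117 in leukemia, 315 and 351 in preleukemia, and 333 and 464 in mock. Ly6c2, a marker of classical monocytes, carried this order, with 5.68 and 34.8 RPKM in leukemia, 264 and 301 RPKM in preleukemia, and 277 and 390 RPKM in mock. Without it the sums were 80.1 and 82.5 in leukemia, 51.2 and 50.5 in preleukemia, and 55.6 and 73.6 in mock, highest in leukemia. Cd68, a lysosomal protein of macrophages, carried much of that order, with 45.2 and 49.6 RPKM in leukemia, 23.1 and 23.3 RPKM in preleukemia, and 12.6 and 16.6 RPKM in mock. The list did not move one way. Cd68 and Mrc1, the mannose receptor, rose in leukemia against mock (1.64 and 1.10, limma adjusted p = 0.000763 and 0.00941) and in preleukemia against mock (0.64 and 1.06, 0.0225 and 0.0138). Ly6c2, Ccr2 and Cx3cr1 fell in leukemia against mock (-4.42, -1.48 and -0.66, limma adjusted p = 0.00572, 0.000499 and 0.0202). Csf1r and Ccr2 fell in preleukemia against mock (-0.94 and -1.59, limma adjusted p = 0.0220 and 0.000632).

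Among the B cell markers, Ms4a1, Pax5 and Igll1 were at 0 in both leukemia libraries and Ms4a1 in both preleukemia libraries, and Fcgr1 was at 0 in leukemia. Neither Evi1 group overlapped mock in the dendritic, B cell or T and NK cell sums, nor in H2-DMa, H2-Ob and H2-Ab1, and the same held for 62.7% of all genes in preleukemia and 65.4% in leukemia. The cells were sorted as Lin-, and the lineage markers used are not stated here. The part of mature cells of these types in the class II results was not tested, and in bulk samples fewer cells of a type and less RNA per cell cannot be told apart. The 7 T and NK cell markers summed to 0.271 and 0.309 in leukemia, 0.283 and 0.297 in preleukemia, and 0.576 and 0.640 in mock. The 5 stem and progenitor markers, of which only Kit was in the sort, were all at or above 1 RPKM in every library. They summed to 474 and 453 in leukemia, 458 and 387 in preleukemia, and 579 and 419 in mock. Myb was the largest, with means of 209, 222 and 207 RPKM. Cd34 fell in preleukemia against mock (-1.19, limma adjusted p = 0.00945) and rose in leukemia against preleukemia (1.02, 0.0162). Kit fell in leukemia against mock (-0.39, limma adjusted p = 0.0472). In each comparison the other 4 did not pass, where 19.5%, 18.3% and 25.6% of all genes tested were called.

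**Figure D5:**
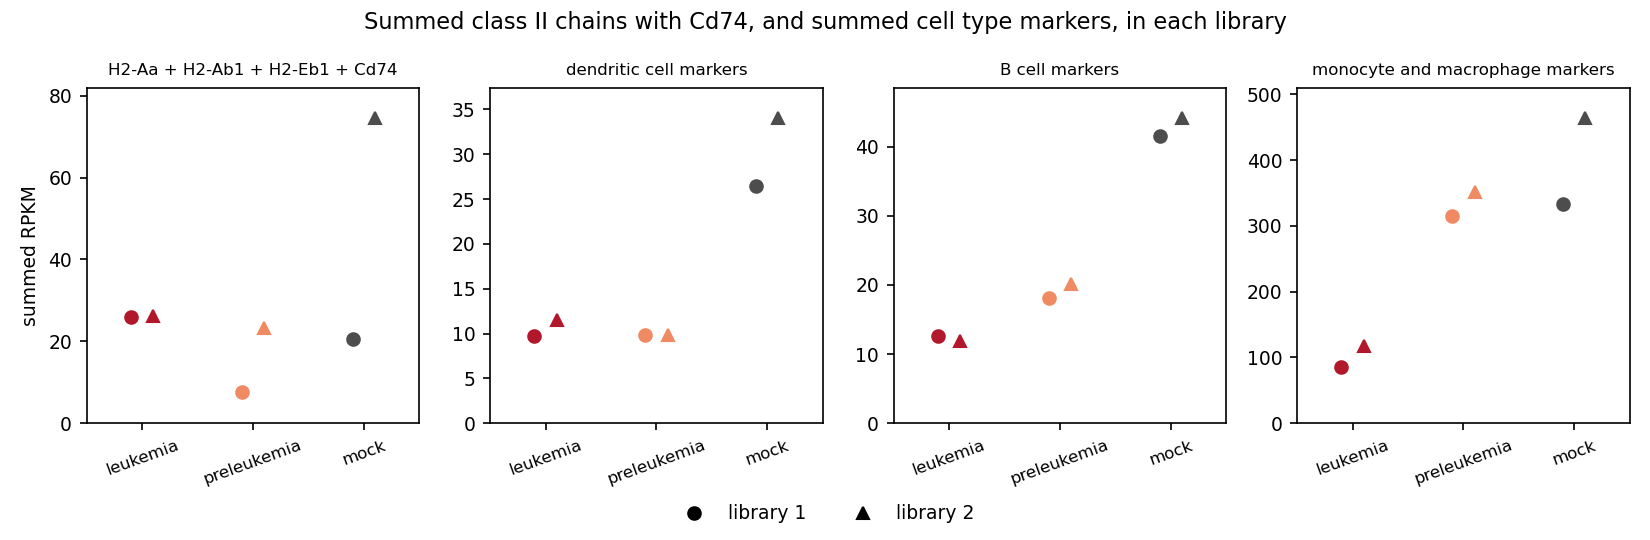
Summed RPKM of H2-Aa, H2-Ab1, H2-Eb1 and Cd74 and of the dendritic cell, B cell and monocyte and macrophage marker lists in each library, by group; circles are library 1 and triangles library 2. The dendritic and B cell sums are highest in both mock libraries, and the class II sum reaches 74.5 in mock 2. Flt3 and Tcf4 make up most of the dendritic sums, and Cd79b goes the other way among the B cell markers.

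The genes whose library profile lay closest to the mean profile of the 6 tested members were Ddit3, Phlda1, Junb, Arid5a, Zbtb2, Rnf19b, Arih2 and Bend4. Likeness was the root mean square difference of centred log2 values over the 6 libraries, from 0.185 for Ddit3 to 0.247 for Bend4. Among the members H2-Ab1 lay closest at 0.334 and H2-DMa farthest at 1.06. Junb, a subunit of AP-1, had 91.2 and 77.0 RPKM in leukemia, 59.9 and 67.7 RPKM in preleukemia, and 102 and 214 RPKM in mock, highest in mock 2 like H2-Aa, H2-Eb1 and Cd74.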

How the data were processed

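Per the labels' protocols, RNA was isolated by Nucleospin RNA and sequenced from NEBNext Ultra RNA libraries on an Illumina HiSeq. CASAVA 1.8.2 and GRCm38 appear, with no role, in the submitters' processing notes. Aligner, counter and annotation: not given in the sources used here. The deposited table holds RPKM, a unit inferred from the values: times exon length (GENCODE M21, 91.0% of rows matched), low values came within 0.02 of whole reads in 63.7% to 65.6% of cases, too few for a count test. limma 3.58.1 in R 4.3.3 was fitted to log2(RPKM + 1) of genes that reached 1 RPKM in 2 or more of the 6 libraries, with group means and a trended spread (3 residual degrees of freedom, 3.7 prior), two-sided, Benjamini-Hochberg adjusted, threshold 0.05. It was tested on simulated data.

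Every member was named. Of the other lists, members past the test were named, up to 4 a list and comparison by smallest p, and the 8 genes of nearest profile. Tap1, Tap2, Psmb8, Psmb9, Brd2, the marker genes named and the marker sums without Ly6c2 or Cd79b, and the promoter patterns were chosen after their values or letters were seen. The members and lists were chosen with earlier results of these data known. The alternatives were a pseudocount of 0.1, no filter, quantile normalization, scaling by a trimmed mean of M-values (TMM), the 4 libraries compared, a replicate block, an untrended spread and each library left out. The TMM factor is unweighted (30% of M and 5% of A trimmed on each side, first library as reference). It replaced a weighted version from a package for counts after that version's values had been seen. Some genes of the lists are not reported here by name. Same-numbered libraries were not shown to be paired.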

Additional observations from a re-analysis of the deposited data

How the results depend on the processing

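H2-DMa kept its direction and call under all 13 alternatives in all 3 comparisons, as did H2-Ob against mock. Called class II members in preleukemia against mock numbered 2, but 1 with no filter, 1 with the 4 libraries compared, and 1 to 6 with a library left out. In leukemia against mock the number was 1, but 2 with the replicate block, where H2-Ab1 passed, and 1 to 3 with a library left out; in leukemia against preleukemia it was always 1. Deviations of same-numbered libraries correlated by 0.179, 0.013 and 0.116, so the block was not taken as a pairing. H2-Eb1 in leukemia against mock turned to 0.037 with a pseudocount of 0.1. With a library left out, log2 fold changes that had not passed crossed 0. In preleukemia against mock they ran from -0.45 to 0.16 for H2-DMb1, -0.36 to 0.024 for H2-Oa and -0.15 to 0.42 for H2-DMb2. In leukemia against mock they ran from -1.05 to 0.65 for H2-Aa, -0.95 to 0.90 for H2-Eb1 and -1.45 to 0.64 for Cd74. Between leukemia and preleukemia they ran from -0.019 to 1.07 for H2-Ab1 and -0.38 to 0.039 for H2-Oa. Genes called over the whole table numbered 2140, 2809 and 2006 in preleukemia against mock, leukemia against mock and leukemia against preleukemia. They numbered 1374 and 3428 in preleukemia against mock and leukemia against preleukemia with the 4 libraries compared, and 1302 in leukemia against preleukemia with no filter. With a library left out they ran from 520 to 3873, 1046 to 3848 and 430 to 3449. Calls in the pathway lists with H2-Ob counted, 9, 13 and 8, became 5 and 7 against mock with the 4 libraries and 5 in leukemia against preleukemia with no filter; with a library left out they ran from 3 to 15, 4 to 14 and 1 to 11. The share of calls that were higher was 69.2%, 47.3% and 28.8%, against 52.9%, 53.4% and 50.8% after quantile normalization and 58.4%, 51.8% and 43.3% after TMM scaling. Quantile normalization moved the median of all genes in leukemia against preleukemia to 0.03, against -0.09. The causes were not tested.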
